A study of Mus musculus with 75 samples.

Results

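The numbered cadherins, classical and atypical, and the protocadherins that lie outside the clustered Pcdha, Pcdhb and Pcdhg arrays were followed in nuclear RNA of 2 kinds of neuron of the mouse nucleus accumbens. Members were chosen by name: every protein-coding gene of GENCODE M21 (mm10) whose symbol is Cdh or Pcdh followed by a number, with an optional x. This gave 35 genes of the 55401 gene identifiers in the count table, 23 with a Cdh and 12 with a Pcdh symbol, and all 35 passed the filter on low counts in every fit. The nuclei came from male mice that carried Cre driven by the gene of the D1 or of the D2 dopamine receptor, together with the Cre-dependent nuclear tag eGFP::L10a, and were sorted by fluorescence. Mice of each line had saline or cocaine at 20 mg/kg intraperitoneally on each of 10 days, 30 days of withdrawal in the home cage, and a challenge of saline or cocaine 1 h before the tissue was taken.

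In each group name the line comes first, and the 2 letters after it, saline (S) or cocaine (C), are read as the repeated injection and then the challenge. In the D1 line there were 10 libraries with saline throughout (D1_SS), 9 with saline injections and a first cocaine at challenge (D1_SC), 8 with cocaine injections and a saline challenge (D1_CS) and 10 with cocaine at both times (D1_CC). In the D2 line there were 9 D2_SS, 9 D2_SC, 10 D2_CS and 10 D2_CC libraries. Age is not stated in the labels used here. Nor do the labels say that each library came from a separate mouse, so p-values measure the spread between these libraries. All groups, saline groups included, carry the Cre and the tag. In bulk nuclei fewer cells of a type and less RNA per cell cannot be told apart.

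Cadherins are single-pass membrane proteins whose extracellular repeats bind calcium and pair with cadherins of the next cell, while the intracellular tail of type I and type II members binds catenins and through them actin. Non-clustered protocadherins lack that catenin tail, adhere weakly, and are grouped as delta-1 and delta-2 by their repeats and by conserved motifs in the tail. In the striatum and its afferents, combinations of these genes are known to mark neuron types and the circuits they join, and several act at synapses: Cdh2 (N-cadherin) stabilises synaptic contacts, and Pcdh8 (arcadlin) was described as an activity-induced protein that takes N-cadherin off the surface.

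The 35 genes are unusually long, and the counts run over the whole gene, introns included. Gene spans ran from 10134 to 1140269 bases with a median of 144975 for the Cdh genes, and from 4538 to 1550396 with a median of 76333 for the Pcdh genes. The median of all 21897 protein-coding genes was 17470 bases, and 19 members exceeded 100 kb. The longest coding exon was 242 to 533 bases in the Cdh genes and 1441 to 3174 bases in the Pcdh genes, so the subfamilies did not overlap: most protocadherins carry their ectodomain on 1 large exon. Most members stand alone or in loose groups, with 8 on chromosome 8, 5 each on chromosomes 14 and 15, 3 on each of chromosomes 1, 2 and 18, 2 on each of chromosomes 3, 10 and X, and 1 on each of chromosomes 4 and 5. Cdh1 and Cdh3 are the closest pair, 46054 bases apart.

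Other annotated genes cover over 5% of the span of 13 members, and whether counting used strand is not given in the sources used here. All of Cdh15, 46.6% of Cdh12, 33.3% of Pcdh10 and 31.0% of Pcdh8 are covered in this way, so their counts may hold reads of the overlapping gene. Cdh10 has no such overlap, and the overlap is 1.39% of Pcdh9 and 7.05% of Pcdh7.

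The promoters of the 3 members with the most stable results below (Pcdh9, Pcdh7 and Cdh10) and of Pcdh8, whose product is known as activity-induced, are shown to let their base composition be compared. Each window holds 250 bases before and 50 after a RefSeq start (GRCm38.p6), 5′ to 3′ on the gene's strand. Capitals mark CG dinucleotides and the TATA box letters TATAAA. Pcdh9 is read on the minus strand at chr14:93890630-93890929, Pcdh7 on the plus strand at chr5:57717831-57718130, Cdh10 on the plus strand at chr15:18820079-18820378 and Pcdh8 on the minus strand at chr14:79771263-79771562.
Pcdh9: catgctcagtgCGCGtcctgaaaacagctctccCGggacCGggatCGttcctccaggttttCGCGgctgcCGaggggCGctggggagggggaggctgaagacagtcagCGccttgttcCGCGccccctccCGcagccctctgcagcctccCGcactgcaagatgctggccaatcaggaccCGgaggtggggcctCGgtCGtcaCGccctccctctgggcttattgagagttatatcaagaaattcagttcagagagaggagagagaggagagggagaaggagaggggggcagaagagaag
Pcdh7: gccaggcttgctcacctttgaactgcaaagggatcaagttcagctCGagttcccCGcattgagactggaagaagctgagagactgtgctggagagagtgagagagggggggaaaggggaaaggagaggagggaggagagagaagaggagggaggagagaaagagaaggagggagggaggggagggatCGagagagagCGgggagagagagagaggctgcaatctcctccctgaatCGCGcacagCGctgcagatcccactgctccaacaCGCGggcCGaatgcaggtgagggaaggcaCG
Cdh10: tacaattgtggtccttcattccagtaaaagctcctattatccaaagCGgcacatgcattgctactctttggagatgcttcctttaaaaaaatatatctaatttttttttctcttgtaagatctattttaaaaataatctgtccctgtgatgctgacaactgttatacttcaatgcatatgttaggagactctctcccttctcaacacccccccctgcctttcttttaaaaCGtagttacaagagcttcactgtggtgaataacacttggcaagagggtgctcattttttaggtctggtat
Pcdh8: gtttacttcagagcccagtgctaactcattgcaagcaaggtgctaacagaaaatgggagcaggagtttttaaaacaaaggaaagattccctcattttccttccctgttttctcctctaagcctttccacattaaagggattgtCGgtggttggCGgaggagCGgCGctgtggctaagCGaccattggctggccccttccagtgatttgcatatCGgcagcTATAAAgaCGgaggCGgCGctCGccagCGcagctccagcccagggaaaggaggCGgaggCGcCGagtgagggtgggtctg

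The windows of Pcdh9 and Pcdh7 are rich in CG, with 18 and 11 CG dinucleotides and 62.7% and 59.3% G or C, against medians of 7 and 52.7% over 32851 promoters. The Cdh10 window is poor in CG, with 2 dinucleotides and 37.7% G or C, and its RefSeq start lies inside the GENCODE span. Pcdh8 holds 14 CG dinucleotides and 1 TATAAA; on either strand, 13.6% of all promoters hold those letters. The CRE letters TGACGTCA (either strand) were in none of the 25 windows found for 22 members and in 1.79% of all promoters; this says nothing of binding.

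Depth and purity varied widely between libraries. Total counts ran from 19825 to 34870414 with a median of 14893119, and 4 of the 75 libraries held under 1000000. Counts also fell on genes silent in brain: the count per base over 1464 olfactory and vomeronasal receptor genes was taken as background, and the share of a library's counts that this level would give over all genes is called its background share. Among the 71 libraries over 1000000 counts, this share had a median of 22.7% for D1_SC, against 44.99% for D1_SS, 55.1% for D1_CC and 63.2% for D1_CS, while the medians of the D2 groups lay between 30.8% (D2_CC) and 45.4% (D2_SC). Of the 37 D1 libraries, 16 held more Drd2 than Drd1, against the label. They fell unevenly over the groups: D1_SC 1, 3, 4, 5, 6 and 9, D1_SS 8 and 9, D1_CC 4, 7, 9 and 10, and D1_CS 4, 6, 7 and 8. No D2 library over 1000000 counts held more Drd1 than Drd2. A quality rule on depth, genes detected, the Drd1 to Drd2 ratio and likeness to the line was failed by 17 libraries, 3 each of D1_SC and D1_CC among them.

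Of the delta protocadherins 3 of 4 delta-1 and 3 of 5 delta-2 genes stood over 2 times background, as did 2 of 5 type I and 3 of 13 type II cadherins; most members did not. The level of a gene is its count per base divided by the background per base of the same library, so that 1 is background and genes can be compared per length. Over the 71 libraries the median level was over 2 for 11 of the 35 members (for 39.3% of all protein-coding genes), over 5 for 3, under 1.5 for 16 and under 1 for 4. The median over the members was 1.54, beside 1.66 for all protein-coding genes. The 1029 silent genes of 5000 bases or more had levels of 0.476 to 1.70 (5th to 95th percentile), and 16 members had medians above that range.

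Among delta-2 protocadherins, Pcdh10 (OL-protocadherin), a regulator of axon growth in striatal pathways, was the highest member, with a level of 1.66 to 275 and a median of 7.19 in D1 libraries and 3.05 to 106 with a median of 8.83 in D2 libraries. Pcdh8 had medians of 6.79 in D1 and 5.31 in D2. Pcdh17, known for a role in the presynaptic organisation of corticobasal circuits, had medians of 3.85 and 5.01. In each of these 3 genes the D1 and D2 libraries overlapped over most of their range. Pcdh18 and Pcdh19, the gene of a female-limited epilepsy, stayed within the silent range given above, with medians over all libraries of 1.47 and 1.19. Pcdh19 is X-linked, and it is set against X-linked silent genes below.

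Among delta-1 protocadherins, Pcdh1 had medians of 6.60 in D1 and 5.76 in D2, Pcdh9 of 3.23 and 4.31, and Pcdh7, which binds protein phosphatases by its tail, of 2.07 and 2.88. Pcdh11x was at 0.809, but silent genes on the X chromosome of these male mice had a level of only 0.537. Against those 9 X-linked silent genes, Pcdh11x had a median level of 1.476 and Pcdh19 one of 2.24. The other protocadherins were low: 1.91 for Pcdh20, 1.42 for Pcdh15 (of inner-ear tip links) and 1.39 for Pcdh12 (of endothelium).

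Cdh11 was the highest cadherin, with medians of 3.10 in D1 and 3.70 in D2 libraries; it is a type II cadherin best known from mesenchyme and bone and also present in neurons. Of the type I genes, Cdh2 had medians of 2.50 and 2.87 and Cdh4 (R-cadherin) of 1.97 and 2.01, while epithelial Cdh1 and Cdh3 stayed at 1.24 and 1.14 over all libraries and muscle Cdh15 at 0.572. Of the other type II genes only Cdh10 (2.27 over all libraries) and Cdh8 (2.07) had medians over 2, followed by Cdh22 at 1.997, Cdh7 at 1.94, Cdh24 at 1.87 and Cdh9 at 1.73. Endothelial Cdh5 was at 1.501 and glial Cdh19 at 0.887. The 5 atypical genes ran from 1.22 (Cdh17, of gut and liver) to 1.67 (Cdh13, T-cadherin, which is held by a lipid anchor), and none was over 2.

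**Figure D1:**
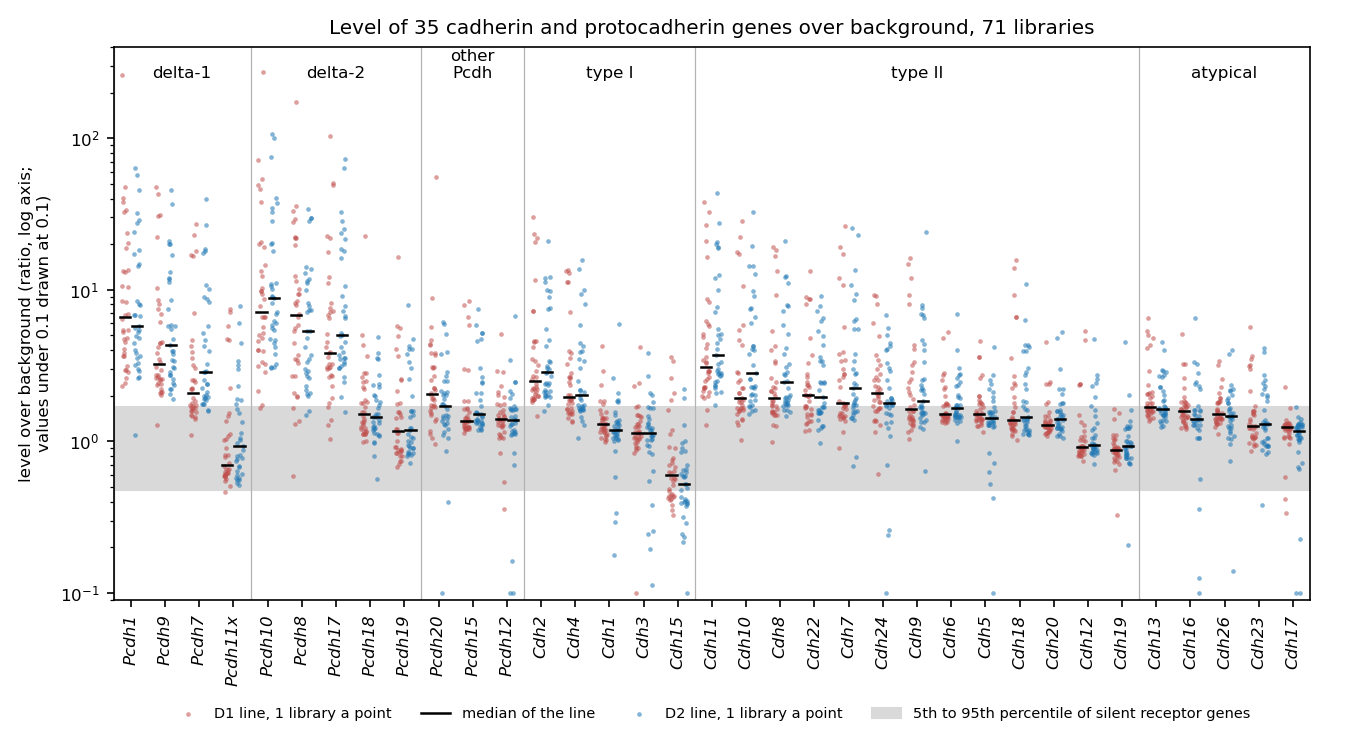
Level over background (count per base relative to silent receptor genes, log axis) of each of the 35 members in 71 libraries, by class, with D1 libraries red, D2 libraries blue and a black bar at the median of each line. Pcdh10, Pcdh1, Pcdh8 and Pcdh17 lie highest, and 19 members have medians that do not exceed the grey range of silent genes (0.476 to 1.70).

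Ratios were larger where background was low, with Pcdh10 and Pcdh1 again the highest. In 16 libraries the background share was under 20% (4.01% to 17.7%), 7 of them from the D1 line and 9 from the D2 line; they were picked by that share after the data were seen, and 4 of the 7 are D1_SC and none is D1_SS. In them the median level was 43.3 for Pcdh10, 33.2 for Pcdh1, 24.5 for Pcdh17, 22.2 for Pcdh8, 20.5 for Pcdh9, 19.7 for Cdh11, 17.1 for Pcdh7, 13.5 for Cdh10 and 11.5 for Cdh2. The median was over 2 for 27 members and over 5 for 14, and 16 members were over 2 in every one of the 16. Neither the share of all protein-coding genes over 2 nor the range of silent genes was taken in these libraries. These counts therefore cannot be set against other genes. Neighbours in this order overlapped: Pcdh10 ran from 20.3 to 275 and Pcdh1 from 17.3 to 260.

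Low members separated further in these libraries. Pcdh11x reached a median of 3.93 and Pcdh19 of 4.08, and Cdh13, whose counts are among the highest of the family because the gene spans 1041189 bases, was at 3.47. Cdh12, in an equally long gene, was at 2.37. Cdh17 at 1.01 and Cdh19 at 0.985 stayed at background, and Cdh1, Cdh3 and Cdh15 at 1.53, 1.45 and 1.16 were near it. CPM (the count per 1000000 counts of the library) followed background in part of the family. The 71 libraries differ in depth and composition. Across them Pearson's r of CPM with background share was 0.97 for Cdh17, 0.94 for Cdh12, 0.92 for Cdh13 and 0.37 for Cdh15. It was -0.68 for Pcdh17, -0.61 for Pcdh9 and -0.45 for Cdh10. The sign was positive for 23 members and negative for 12.

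**Figure D2:**
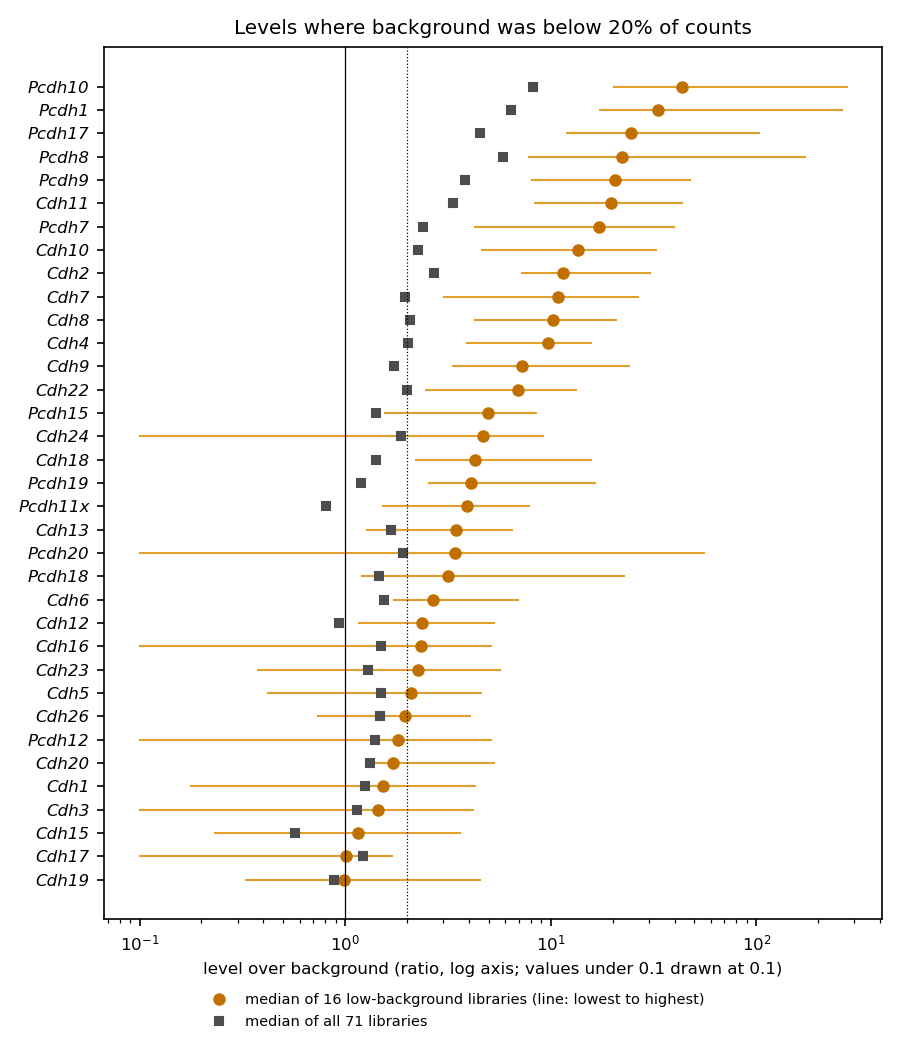
Median level over background (log axis) of each member over all 71 libraries (grey squares) and over the 16 libraries with under 20% background (orange circles, with lines from lowest to highest); vertical lines mark ratios of 1 and 2. Pcdh10 moves from 8.16 to 43.3, whereas Cdh19 stays at 0.887 and 0.985.

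The clearest treatment difference was between the D1 groups that both received cocaine at challenge. After 10 days of cocaine (D1_CC) the delta-1 protocadherins Pcdh9 and Pcdh7 and the type II cadherin Cdh10 were lower than in mice given cocaine for the first time (D1_SC). Adjusted p is from edgeR's quasi-likelihood test with Benjamini-Hochberg adjustment over all genes, and log2 changes carry a standard error. In this comparison 7 of the 35 members fell and 1 rose, beside 10.5% of all genes called, 7.86% lower and 2.62% higher; the members' median change was -0.24 and that of all genes 0.19. The comparison asks whether levels after a cocaine challenge differ with history. Without a saline challenge in either group, it cannot separate a changed response to the challenge from a difference already present before it. The test of a changed response is the D1 interaction, given below. No member passed that test by edgeR in the main fit, though some did in other settings.

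Pcdh9 ran from 784 to 1022 CPM with a median of 908 in D1_CC and from 1024 to 1854 with a median of 1621 in D1_SC. No library of one group entered the range of the other, though the nearest 2 libraries almost touched. Pcdh9 was the 1 member of 35 with groups that did not overlap. The share of all genes with such groups was not counted, so this count cannot be set against other genes. The means were 909 ± 71.6 (SD, n = 10) and 1489 ± 280 (SD, n = 9), and the log2 change was -1.21 ± 0.25 (adjusted p = 0.00246). The gene, ENSMUSG00000055421.8, spans chr14:93013410-93890679, and 1122 counts in the shallowest D1_SC library were the smallest number behind a D1_SC value.

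This fall passed the test in all 11 settings tried, with changes from -1.22 to -0.45 and adjusted p up to 0.0376, and in each of 19 fits that left out 1 library (largest adjusted p = 0.0284, without D1_SC 2). On plain library totals, without TMM factors, it was -0.71 ± 0.12 (adjusted p = 0.00309), where 9.05% of all genes were called and their median change was 0.52. With background share as a covariate it was -0.45 ± 0.14 (adjusted p = 0.0179, 19.5% of all genes called), and with the 17 failing libraries left out -1.13 ± 0.30 (adjusted p = 0.0354). Background share moves with these groups, as given above. So do D2 neuron markers, whose summed CPM was 194 to 2310 (median 1058) in D1_CC and 117 to 530 (median 256) in D1_SC. The 6 D1 neuron markers summed to 237 to 1663 CPM (median 532) in D1_CC and 256 to 873 (median 312) in D1_SC. No marker of either list was at 0. The part of these markers in the result was not tested.

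Pcdh7 ran from 214 to 353 CPM with a median of 298 in D1_CC and from 286 to 567.97 with a median of 408 in D1_SC. Of 9 D1_SC libraries 7 lay above the highest D1_CC library. The change was -1.04 ± 0.24 (adjusted p = 0.00443), and it passed in 9 of the 11 settings; with the background covariate it was -0.26 ± 0.13 (adjusted p = 0.149). The call was lost without D1_SC 2 (adjusted p = 0.0587).

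Cdh10, a type II cadherin whose binding partners include Cdh6 and Cdh9, ran from 104 to 159 CPM with a median of 143 in D1_CC and from 89.0 to 240 with a median of 186 in D1_SC. Of 9 D1_SC libraries 6 lay above the highest D1_CC library, and 1, which held under 1000000 counts, below the lowest. The change was -0.88 ± 0.21 (adjusted p = 0.00664), and it passed in 9 of 11 settings. It was -0.41 ± 0.14 with the background covariate (adjusted p = 0.0318), -0.38 ± 0.13 on library totals (adjusted p = 0.0552), and lost the call without D1_SC 2, without D1_SC 4 (the largest adjusted p, 0.0973) and without D1_SC 9.

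The low-background libraries, which are part of the fits above and not new samples, show the same order in a measure that sets background aside. There, counts above background per kilobase of span, scaled to 1000000 counts above background, were 1.07 and 0.945 for Pcdh9 in the 2 D1_CC libraries, and 2.02, 1.54, 1.91 and 2.20 in the 4 D1_SC libraries. For Pcdh7 the values were 0.490 and 0.505 against 1.13, 0.998, 0.996 and 1.23. For Cdh10 they were 0.546 and 0.523 against 1.11, 0.802, 1.26 and 1.01. The 1 low-background D1_CS library, after a saline challenge, held 1.84, 1.37 and 0.834 for the 3 genes in that order. Drd1 was 366 and 478 CPM and Drd2 59.8 and 60.3 in the 2 D1_CC libraries. In the 4 D1_SC libraries Drd1 was 53.4, 61.3, 70.2 and 61.6 and Drd2 49.5, 118, 83.0 and 84.0. The part of this difference was not tested, and D1_CC 3 and D1_SC 9 failed the quality rule. In each of the 3 genes the D1_CC libraries lay below all 4 D1_SC libraries. Other members separated these libraries as well, in both directions. Cdh4, Cdh8 and Cdh11 were lower in D1_CC, and Pcdh1, Pcdh10 and Pcdh17 were higher. The share of all genes that did so was not counted, so this order cannot be set against other genes. In the D2 line the 2 D2_CC libraries lay below the 3 D2_SC libraries for Pcdh7 as well (1.203 and 1.259 against 1.282, 1.505 and 1.505), but overlapped them for Pcdh9 (1.45 and 1.68 against 1.45, 1.75 and 1.70) and for Cdh10 (1.54 and 0.909 against 1.344, 1.225 and 1.196).

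The other 5 members called passed in fewer of the 11 settings. Cdh18 came close, with 8 settings and 16 of 19 fits that left out 1 library, the same number of fits as Cdh10. Pcdh11x (-0.78 ± 0.20, adjusted p = 0.0103), Cdh18 (-0.70 ± 0.21, adjusted p = 0.0263), Cdh4 (-0.58 ± 0.17, adjusted p = 0.0276) and Cdh8 (-0.70 ± 0.21, adjusted p = 0.0294) fell, but on library totals none of these passed, as Cdh10 did not. The CPM means in D1_CC and D1_SC were 152 ± 21.9 and 183 ± 27.5 for Pcdh11x, 429 ± 127 and 476 ± 153 for Cdh18, 302 ± 69.8 and 321 ± 66.2 for Cdh4, and 264 ± 39.7 and 299 ± 75.3 for Cdh8. Pcdh20 rose (0.97 ± 0.32, adjusted p = 0.0469), from 2.96 ± 2.64 to 6.76 ± 2.02 CPM, with all 10 D1_CC libraries above the D1_SC mean; it passed in 6 of 11 settings and had the opposite sign with library quality weights (-0.28). With the background covariate 14 members passed, 8 lower and 6 higher, beside 19.5% of all genes. The 6 were Pcdh1, Pcdh8, Pcdh10, Pcdh18, Pcdh19 and Pcdh20. The count of 8 was 1 without D1_SC 2, 2 without D1_SC 4 or 9, 5 without D1_SC 5 and 13 without D1_SC 6 or 7. All genes called then numbered 683, 831, 1390, 2160, 8742 and 7769 in that order, beside 3955 in the full fit.

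**Figure D3:**
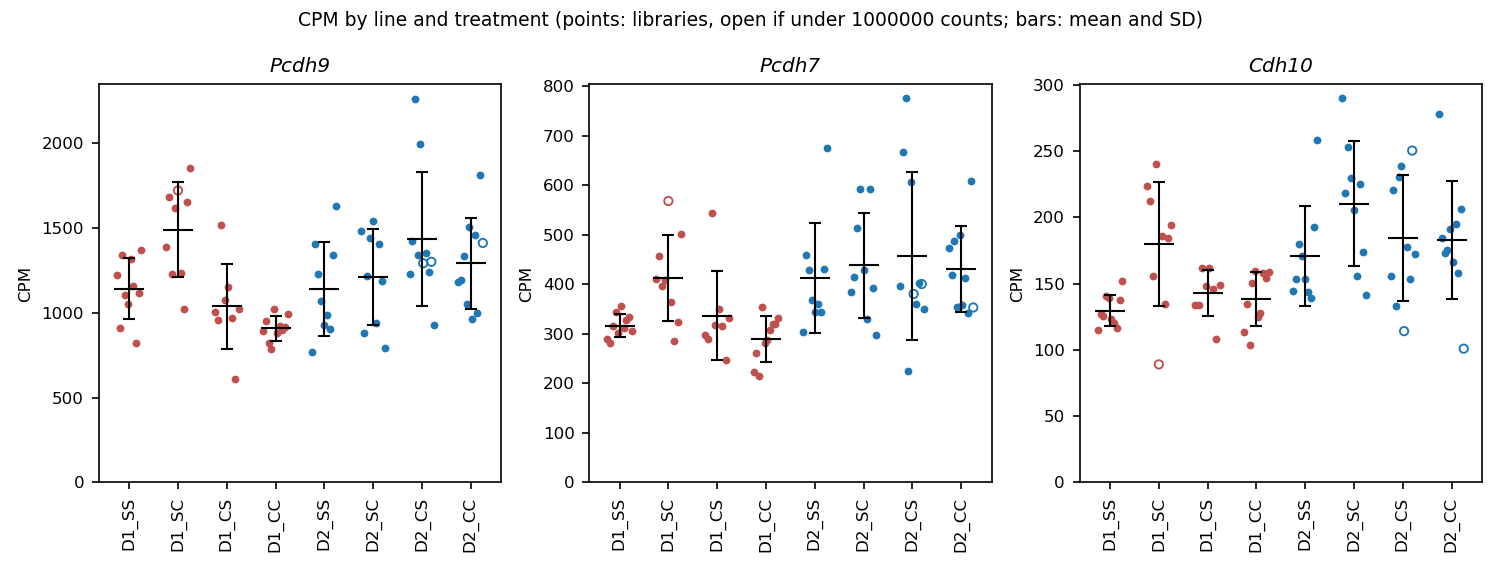
CPM of Pcdh9, Pcdh7 and Cdh10 in each library of the 8 groups (D1 red, D2 blue, open circles for libraries under 1000000 counts), with mean and SD. D1_CC libraries of Pcdh9 end at 1022 where D1_SC libraries begin at 1024, and the D2 means of Cdh10 and Pcdh7 lie above the D1 means in each treatment.

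A first cocaine challenge against saline throughout (D1_SC minus D1_SS) gave 9 rises and no fall among the 35 members, beside 9.7% of all genes called higher and 11.3% in either direction. The members' median change was 0.34 and that of all genes -0.07. By class, 3 of 4 delta-1, 2 of 5 delta-2, 1 of 5 type I, 3 of 13 type II, 0 of 5 atypical and 0 of 3 other genes rose. The count changed with the setting and with single libraries: with RLE scaling 6 members passed (8.13% of all genes), on library totals 0 members passed (0.708%), and with background share as a covariate 0 (0% of all genes). It was 1 (Cdh10) without D1_SC 2, 4 or 9, 3 without D1_SC 5 and 4 without D1_SS 3. All genes called then numbered 459, 511, 777, 1563 and 1505 in that order, beside 4277 in the full fit. TMM factors were 0.522 to 0.931 in the 7 low-background D1 libraries and 0.799 to 1.44 in the other 29, and library totals moved the median change of all genes to -0.53.

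Cdh10 rose most stably in this comparison. It ran from 115 to 152 CPM with a median of 126 in D1_SS, and 7 of 9 D1_SC libraries lay above the highest of these. The means were 129.6 ± 11.97 (SD, n = 10) and 180 ± 47.0 (SD, n = 9), and the change was 1.12 ± 0.21 (adjusted p = 0.00293). It passed in 8 of 11 settings and all 19 fits without 1 library, but was 0.47 ± 0.13 on library totals (adjusted p = 0.0611) and 0.60 ± 0.14 with the background covariate (adjusted p = 0.142).

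Pcdh9 and Pcdh7 were next. Pcdh9 ran from 825 to 1371 CPM with a median of 1141 in D1_SS; 6 of 9 D1_SC libraries lay above that range, and the change was 1.04 ± 0.25 (adjusted p = 0.00614). Pcdh7 ran from 281 to 355 with a median of 314 in D1_SS; 7 of 9 D1_SC libraries lay above it, and the change was 1.05 ± 0.24 (adjusted p = 0.00487). On library totals each was 0.38 (adjusted p = 0.0708 and 0.0725), and both lost the call without D1_SC 2, 4 or 9.

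The other 6 members called had small shifts in CPM or leaned on 1 library. Cdh2 was called (0.61 ± 0.21, adjusted p = 0.0473) with a CPM of 210 ± 44.3 in D1_SC and 214 ± 11.4 in D1_SS. Pcdh19 (1.11 ± 0.37, adjusted p = 0.0425) had 1 of 9 D1_SC libraries above the D1_SS mean, the 1 with under 1000000 counts, at 296 CPM; without it the change was -0.08. That library also held Pcdh17 at 946 CPM against 116 to 231 in the other 8, and the log2 change of Pcdh17 was 1.68 ± 0.41 (adjusted p = 0.00766) with it and not called without it (adjusted p = 0.114). Cdh11 (0.79 ± 0.23, adjusted p = 0.0195), Pcdh11x (0.70 ± 0.20, adjusted p = 0.0184) and Cdh8 (0.69 ± 0.21, adjusted p = 0.0283) were at 0.17, 0.05 and 0.04 on library totals.

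The purity of D1_SC libraries differed from that of D1_SS libraries as well. Summed over 8 markers, medium spiny neuron genes had a median of 4904 CPM (2731 to 7463) in D1_SC and 3509 (2507 to 4391) in D1_SS, all 6 D1 markers together 312 (256 to 873) and 563 (211 to 914), and 7 astrocyte genes 959 (648 to 1378) and 692 (578 to 815); no marker was at 0. Their part in these changes was not tested.

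**Figure D4:**
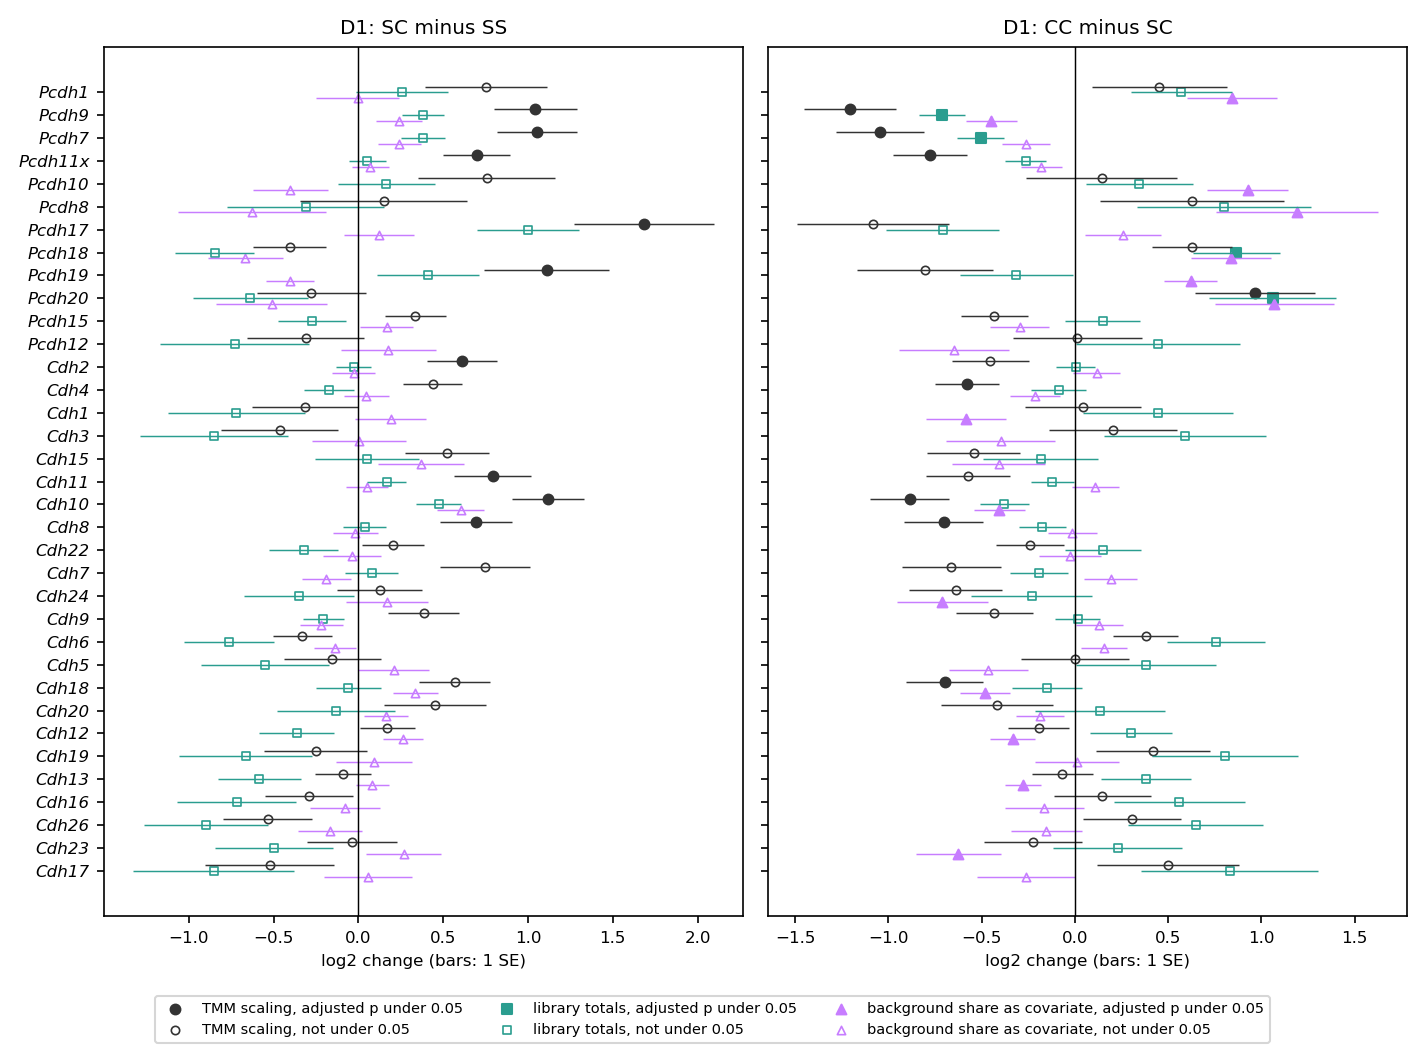
Log2 change (bars, 1 SE) of each member in the D1 line for D1_SC minus D1_SS (left) and D1_CC minus D1_SC (right), with TMM scaling (black circles), library totals (green squares) and background share as a covariate (purple triangles); filled symbols passed at 0.05. On the left all 9 filled symbols are TMM values; on the right Pcdh9 is filled in all 3, from -1.21 to -0.45.

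After 10 days of cocaine, 2 members, Pcdh1 and Pcdh20, were called higher with a cocaine than with a saline challenge (D1_CC minus D1_CS). This is 5.71% of the members, below the 8.31% of all genes called. Pcdh1 ran from 31.5 to 66.7 CPM with a median of 49.5 in D1_CS and from 46.6 to 209 with a median of 75.5 in D1_CC, and 6 of 10 D1_CC libraries lay above all D1_CS libraries. Its change was 1.41 ± 0.38 (adjusted p = 0.0205). Pcdh20, a small and weakly measured gene, rose from 4.53 ± 1.72 to 6.76 ± 2.02 CPM, with 10 of 10 libraries above the D1_CS mean (1.01 ± 0.32, adjusted p = 0.0433), but it passed in 2 of 11 settings only, with adjusted p up to 0.549; Pcdh1 passed in 7.

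Pcdh8 and Pcdh10 had like values that did not pass. Pcdh8 ran from 3.75 to 11.8 CPM with a median of 6.43 in D1_CS and from 5.21 to 34.9 with a median of 13.4 in D1_CC (95% interval of the log2 change 0.467 to 2.49, adjusted p = 0.0666). Pcdh10 was 117 ± 45.3 in D1_CS and 206 ± 125 in D1_CC (1.16 ± 0.43, adjusted p = 0.0849). The values were uneven within D1_CC: the 2 low-background libraries, D1_CC 1 and D1_CC 3, held Pcdh10 at 354 and 483 CPM and Pcdh1 at 156 and 209. With library totals, the background covariate, background subtracted or the failing libraries left out, 0 members passed in this comparison. Of all genes 0.00528% passed with background subtracted and 0% in the other settings just named.

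**Figure D5:**
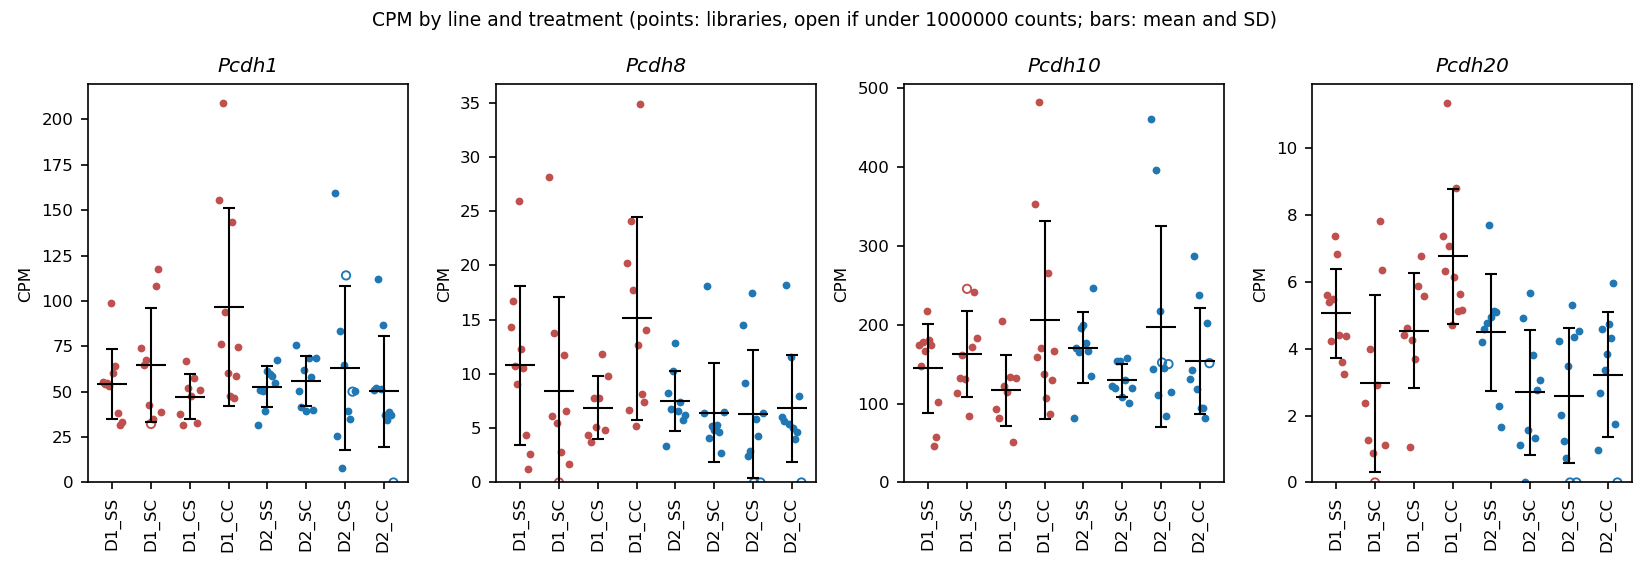
CPM of Pcdh1, Pcdh8, Pcdh10 and Pcdh20 in each library of the 8 groups (D1 red, D2 blue, open circles for libraries under 1000000 counts), with mean and SD. The D1_CC means (96.6, 15.1, 206 and 6.76) are the highest of the D1 groups for each gene, with wide spread and with D1_CC 3 at 483 CPM for Pcdh10.

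No member passed in the remaining comparisons within a line by edgeR. In the D1 line 0 members (0% of all genes) passed for D1_CS minus D1_SS, with 0 members at an unadjusted p under 0.05, and 0 (0% of all genes) for D1_CC minus D1_SS, with 4. Of all 37721 genes, 1204 and 2627 had an unadjusted p under 0.05 in that order. Thus Pcdh9 was 1039 ± 251 in D1_CS and 909 ± 71.6 in D1_CC beside 1142 ± 181 CPM in D1_SS, with changes of -0.11 ± 0.25 and -0.16 ± 0.24. The D1 interaction, which asks whether the challenge response differs with history, gave 0 calls (0% of all genes). Under an unadjusted 0.05 were 10 members, beside 6936 of all 37721 genes. Among the 10 were Pcdh7 (-1.19 ± 0.34, adjusted p = 0.0569), Cdh10 (-1.01 ± 0.30, adjusted p = 0.0635) and Pcdh9 (-1.10 ± 0.35, adjusted p = 0.0758). Pcdh18 went the other way (0.95, adjusted p = 0.0755). With RLE scaling 4 members passed it (3.16% of all genes), with DESeq2 5 (7.79%) and with the background covariate 4 (10.3%).

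In the D2 line 0 members passed in any of the 6 comparisons. Of all genes 0.0859% were called in D2_CS minus D2_SS, 0.252% in D2_CC minus D2_CS and 0% in the others. Unadjusted p was under 0.05 for 3 members in D2_SC minus D2_SS and for 1 or 2 in each of the others. The share of all genes under that level is not given here, so these small counts cannot be set against other genes. For D2_CC minus D2_SC the changes were -0.21 ± 0.28 for Pcdh9 (95% interval -0.76 to 0.34), -0.32 ± 0.30 for Pcdh7 and -0.44 ± 0.27 for Cdh10. Whether they differ from the D1 changes was not tested. The tests of the D1 against the D2 change for SC, CS and CC against SS gave 0 members each, with 0.028%, 0.0892% and 0% of all genes called.

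Cdh10 and Pcdh7 also differed most between the lines, both being lower in D1 nuclei, but short of the threshold. In saline mice Cdh10 was 115 to 152 CPM with a median of 126 in D1_SS and 139 to 258 with a median of 154 in D2_SS. All 9 D2_SS libraries lay above the D1_SS median and 6 above all D1_SS libraries. The same order of means held in each treatment: 130 and 171 in SS, 180 and 210 in SC, 143 and 185 in CS, and 138 and 183 in CC. Pcdh7 had means of 317 and 413 CPM in SS, 413 and 438 in SC, 337 and 456 in CS and 290 and 431 in CC, again with overlap in every treatment.

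Averaged over the 4 treatments, D1 minus D2 was -0.48 ± 0.13 for Cdh10 (adjusted p = 0.113) and -0.48 ± 0.15 for Pcdh7 (adjusted p = 0.207) by edgeR, where 0 members and 0.204% of all genes passed. The same 2 members passed, and were lower in D1, in 5 of 11 settings: with RLE scaling, with DESeq2, on library totals (-0.36 ± 0.07 for Cdh10, adjusted p = 0.00339, and -0.38 ± 0.08 for Pcdh7, adjusted p = 0.00792), with the background covariate and with background subtracted. The shares of all genes called in those 5 settings are not given here, so the 2 calls cannot be set against other genes. Neither member passed once the failing libraries were left out (-0.41 ± 0.14 and -0.46 ± 0.15, adjusted p = 0.907 and 0.735). In saline mice alone 0 members passed (0.0255% of all genes), and 2 had an unadjusted p under 0.05: Cdh10 at -0.62 ± 0.26 and Pcdh7 at -0.62 ± 0.29, both with an adjusted p of 1. The share of all genes with such an unadjusted p is not given here.

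No other member passed by edgeR. The median D1 minus D2 over the 35 was -0.01, as for all genes (0.00). Cdh11 at -0.28 ± 0.14, Pcdh8 at 0.34 ± 0.23 and Pcdh20 at 0.39 ± 0.17 did not pass (adjusted p = 0.809, 0.987 and 0.653). With library quality weights 5 members passed (13.3% of all genes), Pcdh1, Pcdh8 and Pcdh20 being higher and Cdh19 and Pcdh15 lower in D1. Cdh2 was 0.00 ± 0.12 and Cdh4 was 0.02 ± 0.09, with 95% intervals of -0.224 to 0.225 and -0.16 to 0.21.

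Of 18 catenins and cadherin partners, 8 rose and 0 fell in D1_SC minus D1_SS, beside 9.7% of all genes called higher, with a list median of 0.59: Vcl (vinculin, an actin linker, 1.91 ± 0.36), Ctnnd2 (delta-catenin, 1.38 ± 0.26), Pkp4 (1.24 ± 0.25), Afdn (afadin, 1.06 ± 0.27), Ctnna2 (neuronal alpha-catenin, 0.90 ± 0.22), Tjp1 (0.82 ± 0.22), Fer (a kinase, 0.79 ± 0.18) and Ctnnd1 (p120-catenin, 0.62 ± 0.20). Ctnnb1 (beta-catenin) was 0.72 ± 0.41 and did not pass (adjusted p = 0.21). With library totals 3, with background subtracted 1 (list median 0.03) and with the background covariate 0 of the 18 passed. Of all genes 0.708%, 5.21% and 0% passed in that order. In D1_CC minus D1_SC 6 of the 18 fell, beside 7.86% of all genes, with a median of -0.38, led by Vcl (-1.75 ± 0.36) and Ctnnd2 (-1.42 ± 0.26). With the background covariate 2 fell and 5 rose, beside 1613 lower and 5784 higher of all 37843 genes. Between the lines 0 of the 18 passed.

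Of 18 other genes of the superfamily, the large Fat, Dchs and Celsr genes and the calsyntenins among them, 3 rose and 1 fell in D1_SC minus D1_SS, with a median of 0.05. Of all genes 9.7% were called higher there and 11.3% in either direction. Celsr3 (1.25 ± 0.35), Dchs2 (1.15 ± 0.26) and Fat3 (0.77 ± 0.25) rose and Cdhr1 fell (-0.76 ± 0.24). With library totals (0.708% of all genes) or the background covariate (0%) 0 passed. In D1_CC minus D1_CS, where Pcdh1 rose, Celsr2 (1.26 ± 0.38), Clstn1 (1.57 ± 0.43) and Clstn3 (1.36 ± 0.38), the latter both synaptic calsyntenins, were called higher as well, beside 8.31% of all genes. With the background covariate (0% of all genes) or with background subtracted (0.00528%) 0 of the 18 passed there, and 0% of all genes passed on library totals. In D1_CC minus D1_SC, where 10.5% of all genes were called, Cdhr1 rose (0.85 ± 0.24) and Dchs2 fell (-1.15 ± 0.26). With the covariate 5 of the 18 were higher and 0 lower, and with background subtracted 4 and 0, so that the fall of Dchs2 was not called in either. Of all 37843 genes 5784 were higher and 1613 lower with the covariate, and 4337 and 1643 with background subtracted.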

How the data were processed

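Nuclear total RNA was made into stranded low-input libraries, per the labels' protocols. The authors deposited whole-number counts per gene and FPKM; featureCounts, DESeq2 and mm10 are named in the submitters' processing notes, with no versions; aligner and strand setting are not given in the sources used here. In the deposited FPKM the gene length was the full span for 54271 of 54271 identifiers compared; FPKM served only for this. The members and the gene lists were chosen with earlier results of these data known.

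The test was the two-sided quasi-likelihood test of edgeR 4.0.16 under R 4.3.3 (TMM scaling; filterByExpr by group; Benjamini-Hochberg over all genes; threshold 0.05) in 37 D1 libraries (37721 genes), 38 D2 libraries (36090 genes) or all 75 (39250 genes), with no covariate, in 17 comparisons. The edgeR test was run on simulated data for D1_SC minus D1_SS and for the mean D1 minus D2. The other tools were not. All simulated libraries had the same gene profile apart from the genes changed on purpose. Differences in background share between libraries were therefore not part of that check. The standard error is the change divided by the root of the F statistic. CPM divides by the library total. Total counts set the precision. Named genes were the members called in any comparison, the highest by level, and Pcdh8, Cdh13, Cdh2, Pcdh9 and Pcdh10, and of the lists those called with Ctnna2, Ctnnb1 and Ctnnd2.

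Alternatives were RLE scaling, no filter, the DESeq2 1.42.0 Wald test, limma 3.58.1 voom with quality weights, the failing libraries left out, background share as a covariate, background subtracted (limma with trend, log2 of the value plus 1), a replicate block, and each library left out. Chosen after seeing the data were library totals without TMM, libraries under 1000000 counts left out, the low-background libraries, and leaving out libraries in D1_CC minus D1_SC. The background settings used the 71 libraries over 1000000 counts. Promoters are from RefSeq (GRCm38.p6).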

Additional observations from a re-analysis of the deposited data

Results flagged for a closer look

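Per-library CPM of 6 members (Cdh10, Pcdh7, Pcdh17, Pcdh9, Pcdh10 and Pcdh8) was examined in the libraries over 1000000 counts of the 8 groups, 48 sets in all, for a single library far from the rest of its group. In 6 sets 1 library stood apart by Dixon's gap test, where chance gives about 1 in 20. Cdh10 was 278 CPM in D2_CC 1 (next 206.6) and 258 in D2_SS 9 (next 192.8). Pcdh7 was 544 CPM in D1_CS 3 (next 351.0) and 674.5 in D2_SS 9 (next 458.9). Pcdh8 was 28.1 CPM in D1_SC 1 (next 13.8) and 18.1 in D2_SC 2 (next 6.50). The 3 libraries apart for Cdh10 and Pcdh7 had background shares of 14.7%, 5.30% and 10.1%, while the 2 apart for Pcdh8 had 27.6% and 45.4%. No test of a difference between effects (the interactions and the D1 against D2 changes) passed for a member by edgeR with TMM scaling; the D1 interaction passed for 4 with RLE, 5 with DESeq2 and 4 with the background covariate.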

How the results depend on the processing

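Of the changes of single members under alternatives, 102 kept their side of the threshold, 88 lost the call, 10 gained it and 10 reversed. In D1_SC minus D1_SS (9 members called) the count was 4 with voom weights, 5 without failing libraries, 3 without libraries under 1000000 counts, 0 with the background covariate, 3 with background subtracted, 5 with the replicate block, 0 on library totals and 1 to 13 leaving out 1 library. Of all genes 7.25%, 7.78%, 4.13%, 0%, 5.21%, 4.98% and 0.708% were called in that order, and 459 to 10348 genes leaving out 1 library. In D1_CC minus D1_SC (8) the member count was 22, 5, 5, 14, 7, 4, 4 and 1 to 13 in the same order. The shares of all genes called there were 45.1%, 4.56%, 5.71%, 19.5%, 15.8%, 3.89% and 9.05%, with 683 to 8900 genes leaving out 1 library. In D1_CC minus D1_CS (2) the member count was 1 with RLE (1.79% of all genes), no filter (5.25%) or DESeq2 (6.7%), and 4 without libraries under 1000000 counts (12.4%). It was 0 without failing libraries, with the background covariate or on library totals (0% of all genes each), and 0 with background subtracted (0.00528%). The D1 interaction (0) gave 4 with RLE, 5 with DESeq2 and 4 with the background covariate. Voom weights gave 19 in D1_CS minus D1_SS and 8, 1 and 11 in D2_SC, D2_CS and D2_CC minus D2_SS, each 0 in edgeR, where they called 43.9%, 13.6%, 11.5% and 23.3% of all genes; the 22 above stand beside 45.1%. The mean D1 minus D2 (0) gave 5 with voom weights and 2 with RLE, DESeq2, the background covariate, background subtracted or library totals. The shares of all genes called in the settings with 2 are not given here. Catenins called in D1_SC minus D1_SS (8) were 5 with voom weights or without libraries under 1000000 counts, 0 with the covariate, 1 with background subtracted and 3 on library totals; of the other superfamily genes (4), 2 without filter, with background subtracted or with the block, 1 without libraries under 1000000 counts, and 0 with the covariate or on totals.

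Reversed changes in D1_SC minus D1_SS were Cdh2 (-0.0277 with the covariate, -0.193 with background subtracted, -0.0275 on totals), Cdh8 (-0.0191 and -0.0407 with the covariate and background subtracted) and Pcdh19 (-0.11 with DESeq2, -0.0159 with voom weights, -0.0772 without libraries under 1000000 counts, -0.40 with the covariate); in D1_CC minus D1_SC, Pcdh20 (-0.28 with voom weights). The cause was not tested. RLE scaling moved the median change of all genes in D1_SC minus D1_SS from -0.07 to -0.25.

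The labels used here name no pairing by replicate number. Of 228 same-numbered pairs from different groups, 108 had deviations correlated above 0.1. Their median was 0.071, beside 0.020 for other pairs, whose share above 0.1 was not counted. Whether numbers pair the samples was not tested, and the replicate block is given only as counts. Levels close to background and the 4 libraries under 1000000 counts limit what low members can show.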
